A study of Arabidopsis thaliana with 26 samples.

Results

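Cells of the Arabidopsis root sorted by the promoter of SCARECROW (SCR) after 96 h on the synthetic auxin 2,4-D were set against sorted cells of the quiescent centre (QC). The comparison uses 5 of the 26 arrays of the series, chosen by their labels alone: 2 arrays of SCR cells at 96 h and 3 arrays of the wild type QC harvest that was collected on its own. The first group came from pSCR::GFP seedlings that were moved to 1 µM 2,4-D at 2 days after germination with root tips cut off 96 h later. The second came from wild type plants, with no treatment named, carrying GFP under the promoter of WOX5, a homeobox gene of the QC, at 3 days after germination. Both sorts started from protoplasts. The series title names a passage from endodermis to QC, and the question put to these arrays is how the treated cells differ from QC cells at the last time sampled. Promoter, 2,4-D, age and harvest all differ between the groups, so their parts cannot be told apart. Whether the arrays within a group were made from independently grown plants is not labelled, so p-values measure the spread between arrays and no more. That spread was estimated from 14 arrays, the 5 compared here and those of SCR cells at 0, 24, 48 and 72 h. In sorted populations, fewer cells of a type and less RNA per cell cannot be told apart either.

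The QC is a small group of slowly dividing cells at the root tip that keeps the surrounding stem cells undifferentiated, under high auxin and the PLETHORA transcription factors. The endodermis is the innermost ground tissue layer. SHORT-ROOT (SHR) moves into it from the stele and activates SCR, and its mature cells build the Casparian strip, a lignin barrier anchored by CASP proteins. SCR is transcribed in both endodermis and QC, so cells of either kind can carry the marker. 2,4-D is a poor substrate for the auxin efflux carriers, accumulates in cells and acts through the same receptors as natural auxin.

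Each array gave a MAS5 signal, a linear brightness, for 16384 probe sets. Differences are given as SCR cells at 96 h minus QC cells on the scale of log2(signal + 16), with their standard error (SE), from a linear model fitted with limma. The 16 added to every signal damps the folds of weak genes, so a fold against signals near or below 16 is set in part by it. A probe set was called at a Benjamini-Hochberg adjusted p under 0.05 over the 11469 probe sets tested. Median signals lay between 63.6 and 67.3 at 96 h and between 81.3 and 86.7 in QC cells. The arrays at 96 h correlated at 0.942 with each other, the QC arrays at 0.963 to 0.966, and the groups at 0.757 to 0.776. A second wild type QC harvest, Col-0 plants of the same age grown beside the jkd mutant and sorted in the same way (3 arrays), served as another reference. It differed from the first harvest at 2649 probe sets (23.1% of those tested).

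The cells at 96 h differed from QC cells at 3472 probe sets, 30.3% of those tested. Of these, 1577 were higher at 96 h (13.8%) and 1895 were lower (16.5%), and the median difference over all probe sets was 0.01. The count was 2279 without replicate 2 at 96 h. The lower genes made up most of the large differences: 704 of the 910 calls of at least 4-fold were lower, as were 124 against 21 at 16-fold. A difference of at least 1 on the log2 scale was met by 2948 of the calls (25.7% of those tested). The arrays of the groups did not overlap for 6797 probe sets (59.3%), so a lack of overlap alone is common here. With the 5 arrays fitted alone 4544 probe sets were called. Against the second QC harvest 2540 probe sets were called (22.1%), with 1270 higher (11.1%) and 1270 lower (11.1%).

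**Figure D1:**
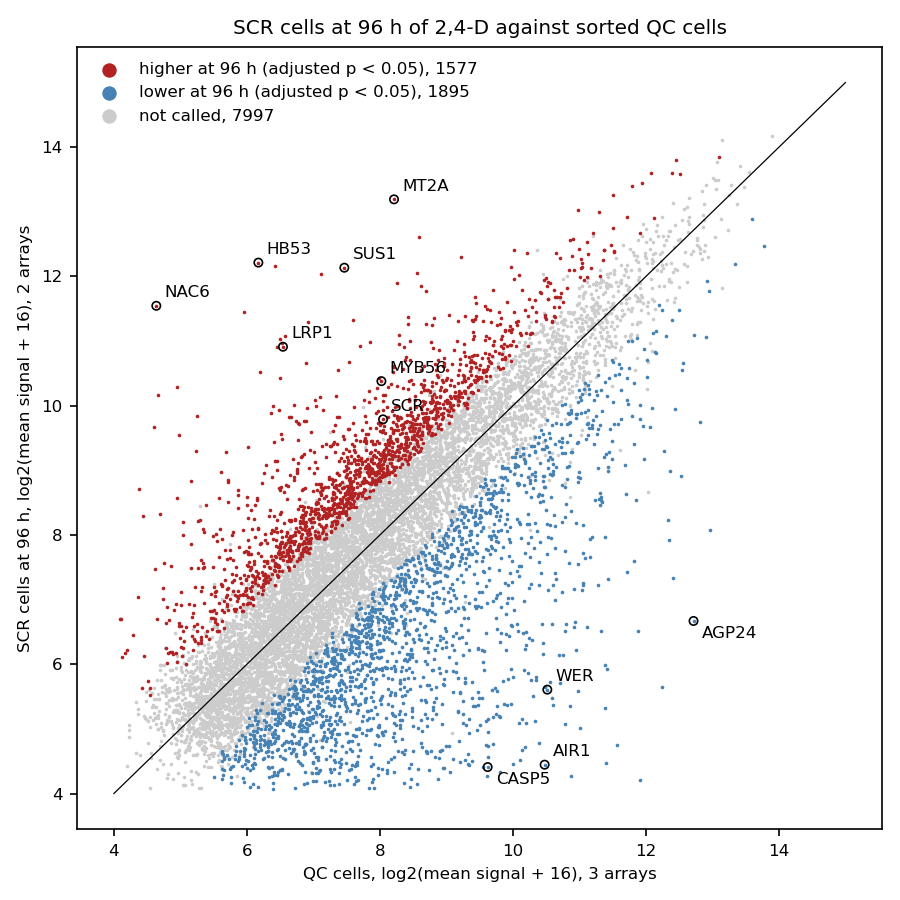
Mean signal of every tested probe set in SCR cells at 96 h (vertical) and in QC cells (horizontal), both as log2(signal + 16), with 1577 probe sets called higher in red and 1895 called lower in blue. The lower calls reach far into the bottom right, where genes such as AIR1 and CASP5 lie near the floor at 96 h.

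The markers of the labelled cell types were read first. The 96 h cells are labelled endodermis. SCR, the gene whose promoter was used for the sort, gave 664 and 1074 at 96 h, against 199.6, 196 and 349.7 in QC cells (log2 difference 1.75 ± 0.38, adjusted p = 0.00243). Its lowest signal at 96 h was above its highest in QC cells. The CASP genes were near the floor at 96 h: CASP5 gave 0.9 and 9.6 and CASP4 gave 1 and 3.6. The summed signal of 6 endodermis markers ran from 918.6 to 1417 at 96 h, against 2050.1 to 3105.5 in QC cells, and most of the sum at 96 h was SCR. In the second QC harvest the endodermis sum was 1079.04 to 1589.98, which overlaps the range at 96 h. The members did not match, since CASP2, CASP4, CASP5 and PER64 were each called lower at 96 h against that harvest. In SCR cells at 0 h the endodermis sum was 12621.9 to 21612.5. The summed signal of 6 QC markers (BBM, PLT1, PLT3, MYB56, TEL1 and AGL42) ran from 3356.5 to 5008 at 96 h, against 2283 to 2998.5 in QC cells. Most of that sum at 96 h was MYB56, PLT3 and BBM. The 6 markers were split, with 2 called higher and 2 called lower (PLT1 and TEL1). In SCR cells at 0 h the same QC sum was 381 to 579.5. Sums over markers of other cell types are given beside the groups they touch. WOX5 was not analysed here.

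Niche genes were split. Of the 19 tested members, 4 were higher at 96 h, 4 were lower and 11 were not called, with a median difference of -0.32, against 0.01 over all probe sets. That share, 42.1%, stands beside 30.3% over all probe sets.

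The higher niche genes were MYB56, ERF115, CLE40 and PLT3. MYB56 (BRAVO), a repressor of QC divisions, had signals of 992 and 1641 at 96 h, against 229, 253 and 250.3 in QC cells (log2 difference 2.31 ± 0.40, adjusted p = 0.000428). Against the second harvest the difference was 2.36 ± 0.43, which puts MYB56 above both sets of QC cells. ERF115, an ethylene response factor that promotes QC division and stem cell replenishment, gave 415 and 571 at 96 h, against 81.6, 96.6 and 98.6 in QC cells (log2 difference 2.22 ± 0.39, adjusted p = 0.000454). The second QC harvest averaged 234 for ERF115, and the difference from it did not pass (1.10, adjusted p = 0.0873). CLE40, a peptide that restrains the columella stem cells, gave 118 and 122 at 96 h, against 58.7, 17.6 and 59.3 in QC cells (log2 difference 1.24 ± 0.40, adjusted p = 0.0257). The PLETHORA gene PLT3 gave 1241 and 1758 at 96 h, against 630.1, 598 and 870.4 in QC cells (log2 difference 1.08 ± 0.31, adjusted p = 0.0157). The arrays of the groups did not overlap for any of these 4 genes. The call was lost for PLT3 without replicate 3 at 96 h or QC replicate 1 or 2 (adjusted p = 0.0531 to 0.151). It was lost for CLE40 without replicate 2 or 3 at 96 h or QC replicate 2 (adjusted p = 0.101 to 0.116).

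BABY BOOM (BBM), another PLETHORA family member, gave 784 and 1058 at 96 h, against 434, 507 and 595 in QC cells and was not called (log2 difference 0.82 ± 0.36, adjusted p = 0.0953). The second harvest averaged only 167 for BBM, and the cells at 96 h were above it by 2.35 ± 0.38 (adjusted p = 0.000341). The difference of BBM was thus positive against both harvests, and whether it was called depended on which harvest was used.

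PLT1, a master regulator of the root stem cell niche, was lower at 96 h. It gave 131 and 349 at 96 h, against 608, 617 and 849 in QC cells (log2 difference -1.59 ± 0.42, adjusted p = 0.00844). The replicates at 96 h were far apart, but both lay below all QC arrays. TEL1, a putative RNA-binding gene of the niche, gave 57.8 and 71.7 at 96 h, against 319, 295 and 343 in QC cells (log2 difference -2.06 ± 0.35, adjusted p = 0.000362). The zinc finger gene WIP4, which acts in root initiation in the embryo, gave 50.4 and 31.8 at 96 h, against 112, 112 and 179.5 in QC cells (log2 difference -1.39 ± 0.35, adjusted p = 0.00655). TAA1, the aminotransferase of the first step of auxin synthesis from tryptophan, gave 195 and 308 at 96 h, against 1094, 1269.7 and 1546 in QC cells, a 4.99-fold lower level (log2 difference -2.32 ± 0.31, adjusted p = 3.34e-05). PLT1, TEL1, WIP4 and TAA1 had no overlap between groups. The call was lost for PLT1 without replicate 2 at 96 h (adjusted p = 0.177) and WIP4 without replicate 3 at 96 h (adjusted p = 0.0749). Against the second harvest all 4 had negative differences that did not pass, from -0.92 for PLT1 to -0.46 for TAA1.

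Other niche genes did not pass. RBR1, the retinoblastoma protein that holds the QC out of division, gave 305 and 402 at 96 h, against 279, 320.5 and 294 in QC cells (log2 difference 0.22 ± 0.28, adjusted p = 0.587). AGL42, a MADS box gene used as a QC marker, gave 149.7 and 131 at 96 h, against 62.8, 96.7 and 90.5 in QC cells (log2 difference 0.67 ± 0.33, adjusted p = 0.14). For AGL42 the groups stood apart without a call. At 0 h, before 2,4-D, the means of SCR cells were 69.1 for MYB56, 213 for PLT3, 22 for BBM, 71.6 for PLT1 and 5.93 for TEL1. Each of these 5 means was below both arrays at 96 h.

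Among the genes around SHR and SCR, 8 were tested. The one called higher was SCR, whose own promoter was used to sort the cells at 96 h. NUTCRACKER (NUC), a zinc finger partner of the network, was the one called lower, at 38.5 and 52.7 at 96 h, against 120, 94.7 and 221 in QC cells (log2 difference -1.32 ± 0.44, adjusted p = 0.032). The second harvest had a mean of 403 for NUC, above every array of the first. The call was lost for NUC without replicate 2 or 3 at 96 h or QC replicate 1 or 3 (adjusted p = 0.0549 to 0.175). SHR itself gave 164 and 275 at 96 h, against 173, 208 and 248 in QC cells, with overlapping groups (log2 difference 0.03 ± 0.43, adjusted p = 0.968). JKD, the zinc finger protein that restrains SHR movement, gave 85.8 and 91.7 at 96 h, against 111, 88.1 and 138 in QC cells (log2 difference -0.28 ± 0.47, adjusted p = 0.694). The share of this list called was 25%, against 30.3% over all probe sets.

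**Figure D2:**
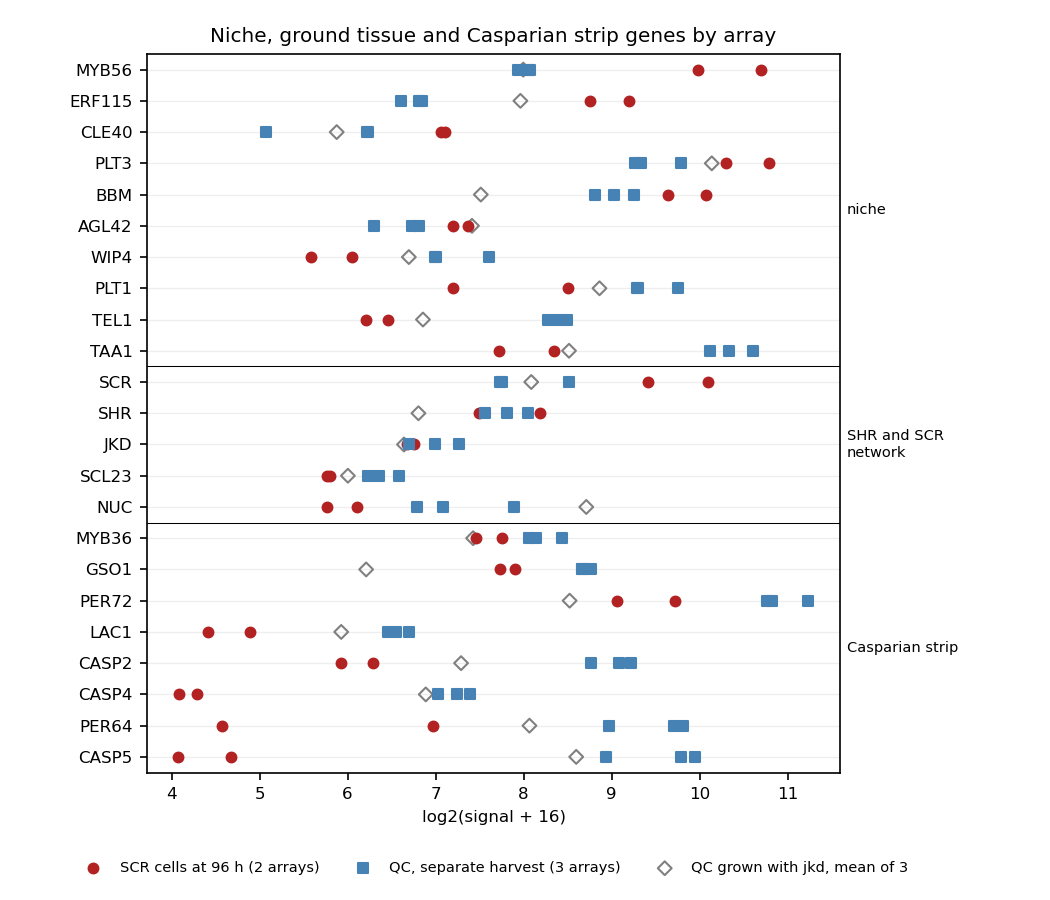
Signal by array, as log2(signal + 16), of niche, SHR and SCR network and Casparian strip genes in SCR cells at 96 h (red circles) and in QC cells (blue squares), with the mean of the second QC harvest as an open diamond. MYB56 and SCR lie to the right of the QC arrays at 96 h, and the CASP genes and PER64 to their left.

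Genes of the Casparian strip were lower at 96 h than in QC cells. Of 9 tested, 7 were lower and MYB36 and LAC13 were not called. The median difference was -1.92, and 77.8% were called, against 30.3% over all probe sets. CASP5, a scaffold protein of the strip, gave 0.9 and 9.6 at 96 h, against 473, 969.5 and 871 in QC cells, lower than on any QC array (log2 difference -5.18 ± 0.39, adjusted p = 1.22e-07). Its relatives CASP2 and CASP4 gave log2 differences of -2.92 ± 0.31 (adjusted p = 3.49e-06) and -3.03 ± 0.43 (adjusted p = 6.06e-05). PER64, the peroxidase that polymerises lignin at the strip, gave 7.8 and 109 at 96 h, against 486, 819 and 883 in QC cells (log2 difference -3.73 ± 0.53, adjusted p = 0.000152). All arrays at 96 h lay below all QC arrays for these 4 genes, and each was also called lower against the second harvest.

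The sorted QC cells had measurable CASP signal, and the means of SCR cells at 0 h were higher still. Those means were 1078 for CASP5, 5049 for CASP2, 1882 for CASP4 and 6222 for PER64. At 24 h they stood at 81.9, 197, 12.2 and 201 in the same order of genes. MYB36, the transcription factor that switches on strip formation, gave 200.5 and 159 at 96 h, against 251, 332 and 266 in QC cells and was not called (log2 difference -0.61 ± 0.62, adjusted p = 0.498). MYB36 was called lower when the replicate number was added to the fit as a block (-0.76, adjusted p = 0.0288). Its adjusted p was 0.0803 with the 5 arrays alone and 0.0738 without replicate 5 at 0 h, so the lack of a call depended on the fit.

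For other strip genes the QC harvests gave different pictures. GSO1, a receptor kinase for the peptides that close the strip and a gene outside the rule for naming, picked after its values were seen, gave 197 and 223 at 96 h, against 419, 389 and 391 in QC cells (log2 difference -0.88 ± 0.27, adjusted p = 0.0225). It averaged 58.1 in the second harvest and was called higher at 96 h against it (1.74 ± 0.39, adjusted p = 0.00456). The call against the first harvest was lost for GSO1 without any 1 of the 5 arrays (adjusted p = 0.0531 to 0.124). The peroxidase gene PER72 gave 520.1 and 826 at 96 h, against 1729, 1791 and 2398 in QC cells (log2 difference -1.55 ± 0.31, adjusted p = 0.00137). The second harvest averaged 352 for PER72, and the difference from it did not pass (0.95, adjusted p = 0.077). LAC1, a laccase gene, gave 5.3 and 13.6 at 96 h, against 88.2, 72.1 and 77.9 in QC cells (log2 difference -1.92 ± 0.42, adjusted p = 0.00238). Of 5 suberin genes tested, the regulator MYB92 was the one called (a share of 20%, below the 30.3% over all probe sets), at 2.9 and 19.7 at 96 h, against 48, 49.5 and 74.3 in QC cells (log2 difference -1.48 ± 0.35, adjusted p = 0.00446). That call was lost for MYB92 without replicate 2 at 96 h (adjusted p = 0.0862).

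Auxin genes differed in both directions. Aux/IAA proteins are short-lived repressors, many of them induced by auxin, that block the auxin response factors (ARFs). Of 18 tested, 8 were lower at 96 h and 3 were higher, with a median difference of -0.89. The lower members were IAA33, IAA19, IAA28, IAA7, IAA4, IAA1, IAA2 and IAA14, and 61.1% of the family were called, against 30.3% over all probe sets. IAA33, a member that lacks the degron, gave 43.6 and 13.9 at 96 h, against 608, 797 and 549 in QC cells (log2 difference -3.97 ± 0.43, adjusted p = 4.37e-06). IAA19, a repressor acting with ARF7 in tropisms, gave 239 and 177 at 96 h, against 1446, 1778 and 1475 in QC cells (log2 difference -2.83 ± 0.32, adjusted p = 5.94e-06). No array at 96 h reached a QC array for either gene.

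IAA7 and IAA2, induced early by auxin in seedlings, had log2 differences of -2.49 ± 0.48 and -2.01 ± 0.56, with adjusted p of 0.00121 and 0.0157. IAA28, a repressor of lateral root initiation, gave -2.65 ± 0.49 (adjusted p = 0.000932). The higher members were IAA26, IAA27 and IAA18. IAA26 gave 113 and 100.1 at 96 h, against 6.1, 23.6 and 13.6 in QC cells (log2 difference 2.05 ± 0.46, adjusted p = 0.0032). IAA18 gave 134 and 151 at 96 h, against 38, 50.1 and 53.3 in QC cells (log2 difference 1.33 ± 0.29, adjusted p = 0.00259). Calls were lost for IAA1 without replicate 3 at 96 h (adjusted p = 0.0744), IAA2 without replicate 3 at 96 h (adjusted p = 0.141), IAA14 without replicate 3 at 96 h (adjusted p = 0.0576) and IAA27 without replicate 2 at 96 h (adjusted p = 0.0584). IAA30, whose protein lacks the degron and is long-lived, gave 1707 and 724 at 96 h, against 631, 907 and 1305 in QC cells, with overlapping groups (log2 difference 0.29 ± 0.38, adjusted p = 0.607).

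Of the auxin response factors, 4 of 10 tested were higher and 2 were lower, a share of 60% beside 30.3% overall. ARF7, an activator of lateral root initiation, gave 942 and 833 at 96 h, against 441, 373 and 369 in QC cells (log2 difference 1.14 ± 0.28, adjusted p = 0.00568). Its close relative ARF19 went the other way, at 60.9 and 75.4 at 96 h, against 360.4, 374 and 375 in QC cells (log2 difference -2.20 ± 0.32, adjusted p = 7.83e-05). The ARF7 difference was of about the same size as those of ARF5 (MONOPTEROS, the activator that specifies the embryonic root) at 0.96 ± 0.26, ARF2 (a repressor) at 1.04 ± 0.28 and ARF9 at 1.44 ± 0.28. ARF16, a repressor active in the root cap, gave 112 and 37.2 at 96 h, against 402, 295 and 266 in QC cells (log2 difference -2.01 ± 0.59, adjusted p = 0.0196). Calls were lost for ARF2 without replicate 3 at 96 h (adjusted p = 0.0765), ARF5 without replicate 3 at 96 h (adjusted p = 0.12), ARF7 without replicate 2 at 96 h (adjusted p = 0.051) and ARF16 without replicate 3 at 96 h or QC replicate 1 (adjusted p = 0.0639 to 0.197).

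Genes that make auxin or its precursors were mostly lower than in the first QC harvest. Of 6 tested, 4 were lower and 1 was higher (83.3% called), but against the second harvest 1 of 7 was lower and none higher. Besides TAA1, given above, CYP79B2, which makes indole-3-acetaldoxime from tryptophan, had signals of 228 and 146 at 96 h, against 1845, 2219 and 2728 in QC cells, 11.3-fold lower at 96 h (log2 difference -3.50 ± 0.41, adjusted p = 1.01e-05). The flavin monooxygenase genes YUC5 and YUC7, of the last step of auxin synthesis, had log2 differences of -2.62 ± 0.38 (adjusted p = 6.88e-05) and -1.46 ± 0.51 (adjusted p = 0.0415). Their relative YUC8 was the exception, at 1244 and 2139.9 at 96 h, against 629.9, 939 and 743 in QC cells (log2 difference 1.09 ± 0.34, adjusted p = 0.0238). The mean of YUC8 in SCR cells was 99.3 at 0 h and 241 at 24 h. Among the GH3 enzymes, which couple auxin to amino acids, 5 were tested and 2 called. GH3.17 gave 49.5 and 75.8 at 96 h, against 1109, 991 and 1388 in QC cells (log2 difference -3.91 ± 0.54, adjusted p = 9.65e-05), and GH3.6 gave 141 and 123 at 96 h, against 289, 303 and 359 in QC cells (log2 difference -1.17 ± 0.33, adjusted p = 0.0123). The second harvest averaged 99.8 for GH3.6, below both arrays at 96 h. Calls were lost for YUC7 without any 1 of the 5 arrays or 1 of 2 arrays at earlier times (adjusted p = 0.0504 to 0.246), YUC8 without replicate 3 at 96 h or QC replicate 1 or 3 (adjusted p = 0.062 to 0.255) and GH3.6 without replicate 3 at 96 h (adjusted p = 0.0795).

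Auxin carriers and the kinases that steer them gave 1 gene higher and 4 lower of 9 tested (55.6% called). PILS3, a carrier of the endoplasmic reticulum that holds auxin inside the cell, gave 2040 and 2958 at 96 h, against 73.1, 153 and 88.7 in QC cells (log2 difference 4.41 ± 0.41, adjusted p = 1.45e-06). That is a 21.3-fold higher level, and the lowest array at 96 h was far above the highest QC array. WAG1 and WAG2, protein kinases that phosphorylate PIN carriers, were lower. WAG1 gave 14.4 and 4.3 at 96 h, against 343, 305 and 394 in QC cells (log2 difference -3.86 ± 0.53, adjusted p = 5.34e-05), and WAG2 gave 17.8 and 25.6 at 96 h, against 532, 719 and 537 in QC cells (log2 difference -4.01 ± 0.65, adjusted p = 0.000454). The influx carrier LAX3 gave 0.8 and 7.8 at 96 h, against 97.7, 137 and 124 in QC cells (log2 difference -2.75 ± 0.35, adjusted p = 2.04e-05). The efflux carrier PIN2 was not called, with a difference of 0.29 ± 0.28.

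LATERAL ROOT PRIMORDIUM 1 (LRP1), a SHI family transcription factor expressed in early primordia, was among the largest differences. It gave 1757 and 2066 at 96 h, against 88.6, 65.9 and 77.2 in QC cells, a 20.7-fold higher level (log2 difference 4.37 ± 0.29, adjusted p = 3.93e-08). Its mean in SCR cells was 159 at 0 h and 2289 at 24 h, and the second QC harvest averaged 119. Of the 16 tested genes of lateral root initiation and the LBD family, LRP1, LBD41 and ARF7 were higher and 5 were lower, among them LBD38 and LBD39, repressors of nitrate and anthocyanin genes. That is a share of 50%, against 30.3% over all probe sets. The call was lost for LBD41 without any 1 of the 5 arrays or 1 of 3 arrays at earlier times (adjusted p = 0.0537 to 0.297).

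**Figure D3:**
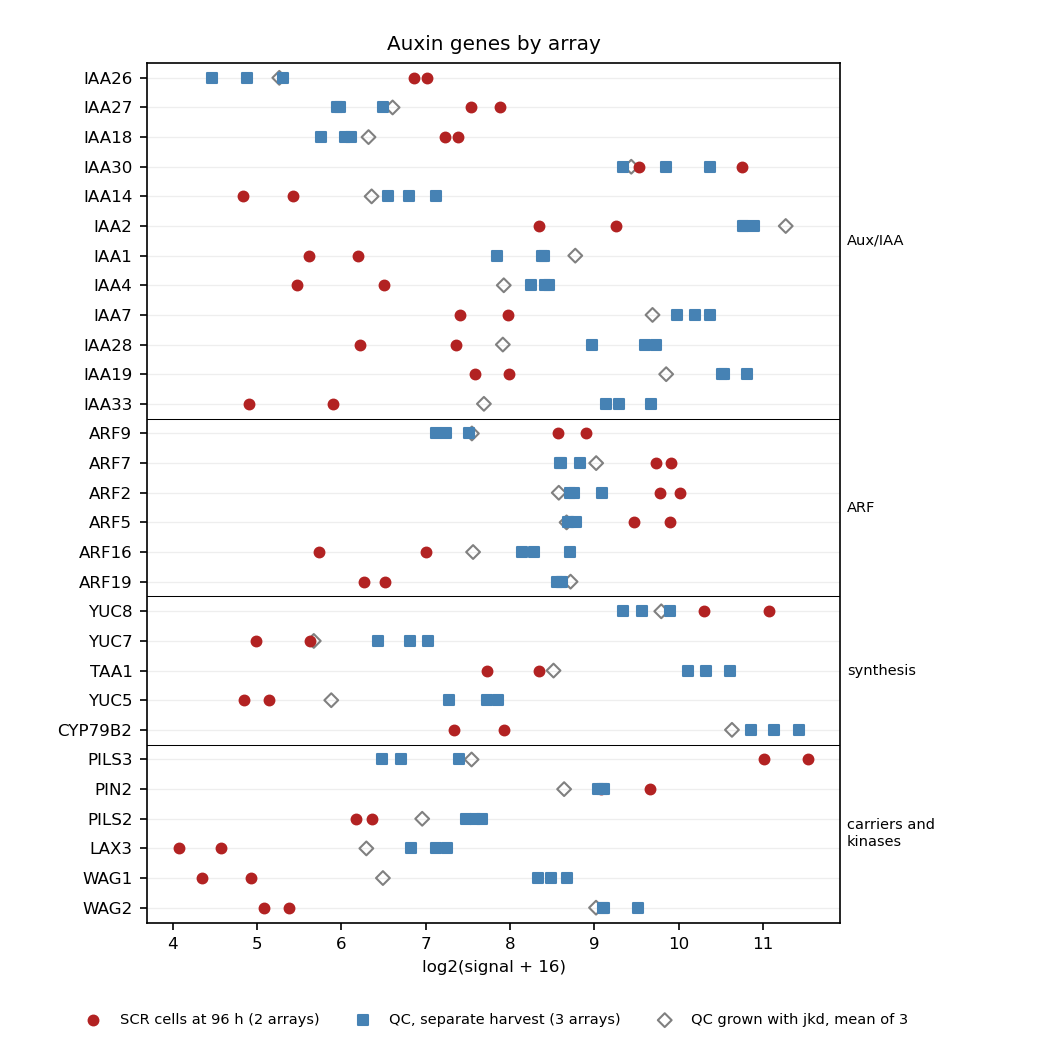
Signal by array, as log2(signal + 16), of auxin genes in SCR cells at 96 h (red circles) and in QC cells (blue squares), with the mean of the second QC harvest as an open diamond. PILS3 stands 21.3-fold to the right of QC cells at 96 h, while IAA33, IAA19, CYP79B2, WAG1 and WAG2 stand to their left.

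Among cell cycle genes, the inhibitors, in a list that also holds CCS52A1, were often lower. Of 11 tested, 6 were lower at 96 h, with a median difference of -2.14 (54.5% called, against 30.3% over all probe sets). SMR4, of the SIAMESE-related inhibitors, gave 37.8 and 40.7 at 96 h, against 763, 425 and 632 in QC cells (log2 difference -3.46 ± 0.42, adjusted p = 1.36e-05). CCS52A1, an activator of the anaphase-promoting complex that limits the meristem by starting endoreduplication, gave 43.2 and 45.1 at 96 h, against 331, 440.4 and 496 in QC cells (log2 difference -2.85 ± 0.39, adjusted p = 4.15e-05). SIAMESE (SIM), the founding member that promotes endoreduplication in trichomes, gave 60.3 and 31.3 at 96 h, against 269, 257 and 289 in QC cells (log2 difference -2.26 ± 0.33, adjusted p = 8.64e-05). KRP2, an inhibitor of cyclin-dependent kinases that restrains lateral root initiation, gave 18.4 and 57.3 at 96 h, against 210.3, 283 and 405 in QC cells (log2 difference -2.60 ± 0.38, adjusted p = 8.2e-05). None of these 4 genes had overlapping groups. The other lower members were SMR1 (-2.33) and KRP7 (-2.14). The call was lost for SMR1 without replicate 3 at 96 h (adjusted p = 0.0979).

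Of 19 DNA replication genes, 2 were higher and 2 lower, and of 29 genes of G2 and mitosis 5 were higher and 2 lower. Those shares, 21.1% and 24.1%, lay below the 30.3% over all probe sets. The higher mitotic genes were kinesins of the phragmoplast and preprophase band (POK1, POK2, PAKRP1 and PAKRP1L) and MYB3R1, a transcription factor of G2 and M phase genes. POK1 gave 168 and 192 at 96 h, against 44.7, 18.8 and 7.8 in QC cells (log2 difference 2.41 ± 0.48, adjusted p = 0.00134), and MYB3R1 gave 363 and 459 at 96 h, against 115, 104 and 149.9 in QC cells (log2 difference 1.62 ± 0.29, adjusted p = 0.000525). The lower ones were the kinase gene AUR1 and the cyclin gene CYCA1;1, at -1.03 ± 0.36 and -1.62 ± 0.33 on the log2 scale. E2FB, a transcription factor that drives entry into S phase, was higher (log2 difference 1.34 ± 0.29, adjusted p = 0.00229), whereas TSO2, a ribonucleotide reductase subunit, gave 91.1 and 50.2 at 96 h, against 575, 433 and 583 in QC cells (log2 difference -2.69 ± 0.34, adjusted p = 2.11e-05). D-type cyclins gave 2 lower of 6 tested, CYCD5;1 and CYCD3;1, a share of 33.3% that is near the 30.3% over all probe sets. Among these genes, calls were lost for POK2 without any 1 of the 5 arrays or 1 of 2 arrays at earlier times (adjusted p = 0.051 to 0.231) and AUR1 without any 1 of the 5 arrays (adjusted p = 0.0591 to 0.187), and also for PAKRP1 without replicate 2 at 96 h or QC replicate 2 or 3 or 1 of 5 arrays at earlier times (adjusted p = 0.0501 to 0.29), PAKRP1L without replicate 2 or 3 at 96 h or QC replicate 2 (adjusted p = 0.0556 to 0.0636), CYCD3;1 without replicate 3 at 96 h or QC replicate 2 (adjusted p = 0.0788 to 0.162) and CYCD5;1 without replicate 2 or 3 at 96 h or QC replicate 2 or 3 or 1 of 2 arrays at earlier times (adjusted p = 0.0514 to 0.156).

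Of 21 cytokinin genes tested, 3 were called and all 3 were lower (14.3%, below the 30.3% overall). ARR5 and ARR9, type-A response regulators induced by cytokinin that feed back on its signalling, were lower. ARR5 gave 27.6 and 36.3 at 96 h, against 369, 371 and 234 in QC cells (log2 difference -2.81 ± 0.49, adjusted p = 0.000428), and ARR9 gave 98.4 and 88.3 at 96 h, against 401, 326 and 594 in QC cells (log2 difference -2.02 ± 0.40, adjusted p = 0.00125). The type-B regulator ARR10, a transcription factor of the cytokinin response, gave 40.8 and 87.4 at 96 h, against 631, 536 and 667 in QC cells (log2 difference -3.03 ± 0.32, adjusted p = 3.57e-06). In each of the 3 genes the groups stood apart.

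Epidermal and root hair genes were lower at 96 h. WEREWOLF (WER, listed by RefSeq as MYB66), the MYB factor that sets non-hair fate, gave 56.4 and 9.1 at 96 h, against 1508, 1467 and 1374 in QC cells, 34.4-fold lower (log2 difference -5.10 ± 0.75, adjusted p = 0.000345). MYB23, which acts with it, gave 2.2 and 1.1 at 96 h, against 199, 172 and 169 in QC cells (log2 difference -3.47 ± 0.49, adjusted p = 6.01e-05), and GLABRA2 (GL2), the homeobox gene they activate, gave 18.5 and 1.2 at 96 h, against 90.4, 74.5 and 99.5 in QC cells (log2 difference -2.09 ± 0.45, adjusted p = 0.00228). Of 4 epidermal genes tested these 3 were called (75%, against 30.3% over all probe sets). Of 11 root hair genes 9 were lower (81.8% called), with a median difference of -3.11. The transcription factors RHD6 and RSL4, which start and sustain hair growth, had log2 differences of -3.11 ± 0.53 and -3.67 ± 0.40. The wall genes EXPA18, EXPA7 and PRP3 gave -4.64 ± 0.46, -3.68 ± 0.53 and -3.79 ± 0.82. EXPA18 had signals of 3.1 and 2.4 at 96 h, against 502, 441 and 413 in QC cells, with no overlap. Calls were lost for GL2 without replicate 3 at 96 h (adjusted p = 0.0509) and PRP3 without replicate 3 at 96 h (adjusted p = 0.0507).

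These genes mark cells other than the QC. The summed signal of 3 epidermal markers ran from 11.4 to 77.1 at 96 h, against 1642.5 to 1797.5 in QC cells and 1464.73 to 2948.32 in the second harvest. Whole wild type meristems had 2153.44 to 2977.4. The sum of 6 root hair markers ran from 180 to 510.3 at 96 h, against 1778.1 to 1883.5 in QC cells and 1429.48 to 3756.9 in the second harvest. In SCR cells at 0 h the epidermal sum was 112.8 to 635.8, already below QC cells before 2,4-D. Their root hair sum at 0 h was 1502.1 to 1991.6, a range that holds all QC arrays of the first harvest. Both QC harvests thus held epidermal marker signal, and the cells at 96 h held little of it. The part of this signal in the other differences was not tested.

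Markers of other cell types were summed in the same way. The 4 root cap markers summed to 355.7 to 389.9 at 96 h, against 1112.1 to 1285.6 in QC cells and 331.01 to 551.06 in the second harvest. Of these, BRN1 and BRN2, NAC factors of root cap maturation, were lower (-2.86 ± 0.47 and -3.93 ± 0.41), and COBL2 was higher (2.08 ± 0.34). The 7 xylem markers summed to 219.7 to 323.2 at 96 h, against 600.2 to 840.1 in QC cells and 509.55 to 815.11 in the second harvest. XCP1, a cysteine protease of dying xylem vessels, gave 2.7 and 2.7 at 96 h, against 240.5, 376 and 396 in QC cells (log2 difference -4.21 ± 0.46, adjusted p = 5.51e-06). The 4 pericycle and stele markers summed to 39.8 to 65.8 at 96 h, against 173.1 to 193.9 in QC cells and 248.39 to 356.17 in the second harvest. The 4 phloem markers summed to 243.2 to 265.5 at 96 h, against 184.7 to 240.8 in QC cells and 225.87 to 412.55 in the second harvest, a range that holds both arrays at 96 h. SMXL3, a regulator of early phloem formation, was higher, at 611 and 548 at 96 h, against 106, 76.2 and 109 in QC cells (log2 difference 2.41 ± 0.33, adjusted p = 5.22e-05). The phloem list went both ways, with 1 higher and 2 lower of 5 tested (60% called, against 30.3% over all probe sets).

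Water channels were lower nearly throughout. Of 15 aquaporin genes tested, 12 were lower at 96 h, with a median difference of -3.57 (80% called, against 30.3% over all probe sets). TIP2;1, a channel of the vacuolar membrane (listed by RefSeq as DELTA-TIP), gave 69.8 and 25.6 at 96 h, against 2583, 2646 and 2744 in QC cells, 44.7-fold lower (log2 difference -5.48 ± 0.51, adjusted p = 3.68e-06). TIP2;2 gave 29.1 and 34.9 at 96 h, against 1970.4, 2151 and 1885 in QC cells (log2 difference -5.39 ± 0.44, adjusted p = 3.58e-07). PIP2;4, a channel of the plasma membrane, gave 13.8 and 24.2 at 96 h, against 1232, 1172 and 1426 in QC cells (log2 difference -5.22 ± 0.44, adjusted p = 3.83e-07). The groups stood far apart for all 3. In SCR cells at 0 h, TIP2;1 averaged 12714 and TIP1;2 averaged 9648, and at 24 h they averaged 217 and 88.5. The second QC harvest averaged 2299.8 for TIP2;1, with a difference of -5.08 ± 0.63.

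Genes of the cell wall and its surface followed. Arabinogalactan proteins are heavily glycosylated proteins of the outer cell surface, and of 25 tested 15 were lower and 2 higher (median -1.82, 68% called). AGP24 had signals of 102 and 69.7 at 96 h, against 5948, 7354 and 6837 in QC cells, 66.7-fold lower (log2 difference -6.06 ± 0.33, adjusted p = 6.49e-09). AGP13 and AGP14 had log2 differences of -4.90 ± 0.41 and -4.82 ± 0.36. AGP12 and AGP10 were the higher members, at 1.07 ± 0.30 and 1.06 ± 0.26. Of 16 xyloglucan-modifying enzymes (XTH), 11 were lower and XTH24 was higher (75% called, against 30.3% over all probe sets). XTH15 gave 62 and 72 at 96 h, against 1071, 1407 and 1223 in QC cells (log2 difference -3.91 ± 0.38, adjusted p = 1.54e-06), and XTH18 gave 63.6 and 189.5 at 96 h, against 1296, 2189.8 and 2791 in QC cells (log2 difference -3.97 ± 0.43, adjusted p = 5.94e-06). Of 17 expansins, proteins that loosen walls, 6 were lower and 2 higher (47.1% called). EXPA11 gave 23.6 and 27.1 at 96 h, against 1428, 1771 and 1427 in QC cells, 37.5-fold lower (log2 difference -5.23 ± 0.48, adjusted p = 1.64e-06), whereas EXLA2, an expansin-like gene, gave 790.4 and 1583 at 96 h, against 264, 199 and 174 in QC cells (log2 difference 2.33 ± 0.48, adjusted p = 0.002). Calls were lost for AGP10 without replicate 3 at 96 h (adjusted p = 0.0726) and AGP12 without replicate 2 at 96 h or QC replicate 3 (adjusted p = 0.053 to 0.122). Against the second harvest AGP10 and XTH24 stood at -0.40 and -0.40, neither called.

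Genes of the root triterpene clusters formed a further lower group. These neighbouring genes make thalianol and marneral in the root, and the list was drawn up after the values were seen, so its counts are a description. Of 9 tested, 8 were lower (median -4.65, 88.9% called, against 30.3% over all probe sets). THAS1, the thalianol synthase, gave 55.1 and 20.8 at 96 h, against 1179, 1639 and 1056 in QC cells (log2 difference -4.65 ± 0.41, adjusted p = 6.47e-07). CYP708A2, which hydroxylates thalianol, gave 80.2 and 36.7 at 96 h, against 1998, 2138 and 1723 in QC cells (log2 difference -4.78 ± 0.36, adjusted p = 1.19e-07). MRN1, the marneral synthase, gave 21.7 and 17.4 at 96 h, against 671, 596 and 621 in QC cells (log2 difference -4.18 ± 0.53, adjusted p = 2.65e-05), and CYP71A16, which acts on its product, gave 69.4 and 3.7 at 96 h, against 1644, 1683 and 1625 in QC cells (log2 difference -5.34 ± 0.46, adjusted p = 6.42e-07). The arrays at 96 h lay below all QC arrays for each of these genes. CYP71A16 was already below QC cells in SCR cells at 0 h (log2 difference -3.47).

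**Figure D4:**
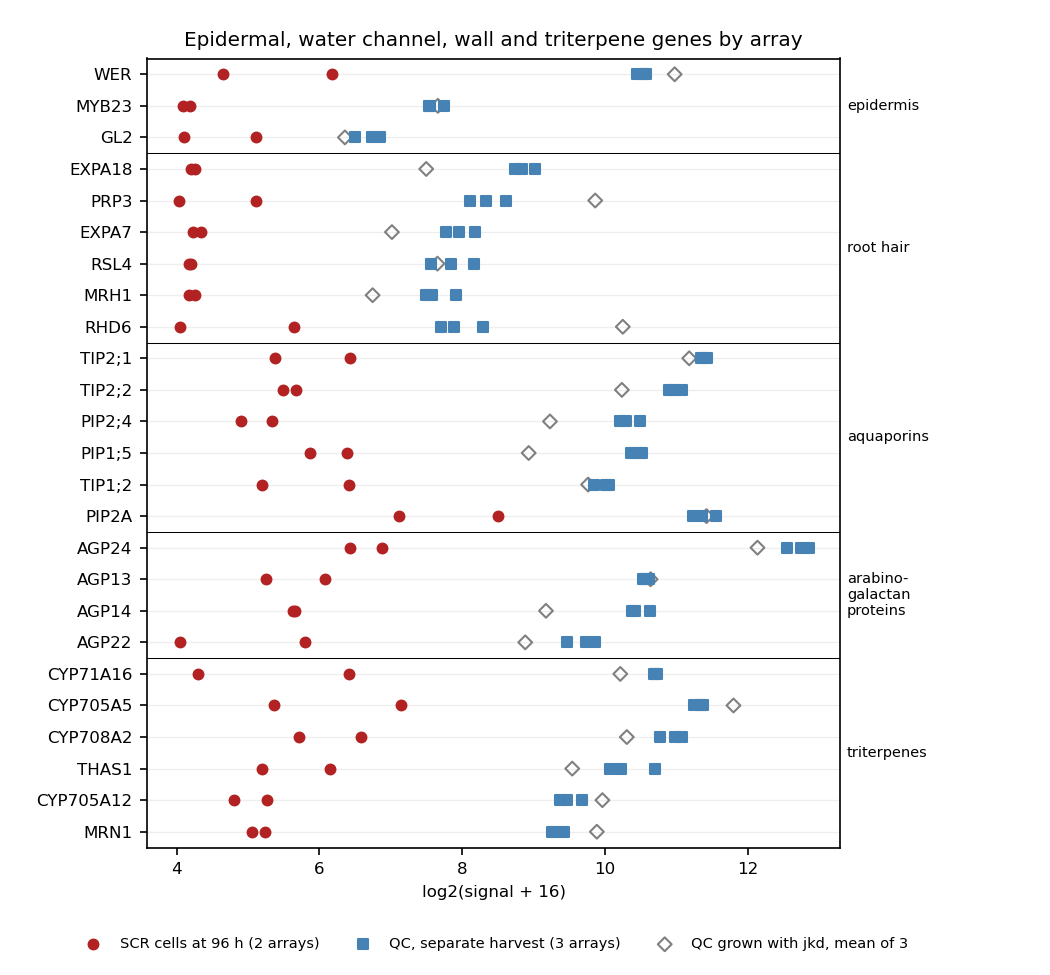
Signal by array, as log2(signal + 16), of epidermal, root hair, aquaporin, arabinogalactan protein and triterpene genes in SCR cells at 96 h (red circles) and in QC cells (blue squares), with the mean of the second QC harvest as an open diamond. Every gene shown lies lower at 96 h than on any QC array, and AGP24 is 66.7-fold lower.

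Stress and jasmonate genes, of which several respond to wounding, were called in 1 direction. Of 24 tested, 12 were lower at 96 h and 12 were not called, with a median of -1.13 (50% called, against 30.3% over all probe sets). JAZ9, a repressor of jasmonate signalling, gave 5.1 and 6.9 at 96 h, against 349, 386 and 282 in QC cells, 16-fold lower on the scale with 16 added (SE 0.42 on the log2 scale, adjusted p = 3.66e-06). Its relative JAZ10 gave 167 and 392 at 96 h, against 1055, 1146 and 1041 in QC cells, 4.01-fold lower (SE 0.41, adjusted p = 0.0017). The cold-induced transcription factor genes CBF2 and DREB1A had log2 differences of -3.16 ± 0.39 and -2.71 ± 0.36. JAZ1 gave 8664 and 6535 at 96 h, against 11372, 14244 and 11532 in QC cells (log2 difference -0.71 ± 0.26, adjusted p = 0.0477). That call was lost for JAZ1 without any 1 of the 5 arrays or 1 of 6 arrays at earlier times (adjusted p = 0.0546 to 0.282).

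The largest differences upward were led by a pair of transcription factors. NAC6 (AT5G39610, also called ORE1), a promoter of leaf senescence, had signals of 4532 and 1416 at 96 h, against 4.8, 12.9 and 9 in QC cells (log2 difference 6.69 ± 0.45, adjusted p = 1.03e-07). HB53, a homeobox-leucine zipper gene known as auxin-induced in roots, gave 5101 and 4371 at 96 h, against 52.9, 85.6 and 29.9 in QC cells, a 69.2-fold higher level (log2 difference 6.11 ± 0.34, adjusted p = 7.69e-09). Both had high means by the first treated time: NAC6 averaged 109 at 0 h and 2946 at 24 h, and HB53 34.9 and 2249.8. NAP, another NAC factor of senescence, gave 2617 and 1695 at 96 h, against 59.5, 97.8 and 80.1 in QC cells (log2 difference 4.50 ± 0.40, adjusted p = 6.67e-07). For NAP the mean in SCR cells at 0 h was 899, already above QC cells by 3.09 on the log2 scale. These 3 genes did not overlap between groups, and against the second harvest their differences were 4.18, 6.11 and 1.67.

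Several enzymes were also among the 15 highest. CAT1, a catalase, gave 1004 and 804 at 96 h, against 11.8, 15 and 39.3 in QC cells (log2 difference 4.66 ± 0.49, adjusted p = 6.94e-06), and FSD1, the iron superoxide dismutase of plastids, gave 1992 and 1996 at 96 h, against 77.4, 110.2 and 41.6 in QC cells (log2 difference 4.52 ± 0.51, adjusted p = 1.42e-05). AER, an alkenal reductase that detoxifies reactive carbonyls, gave 2524 and 1637 at 96 h, against 70.4, 89.9 and 63.6 in QC cells (log2 difference 4.51 ± 0.62, adjusted p = 0.000168). MT2A, a metallothionein that binds metals, gave 11175 and 7521 at 96 h, against 259, 290.4 and 292 in QC cells (log2 difference 4.95 ± 0.38, adjusted p = 1.46e-07). CAT1, AER and MT2A already averaged 457.5, 1011.7 and 2522.6 in SCR cells before 2,4-D. Those untreated cells were above QC cells by 3.44, 3.01 and 2.92 on the log2 scale for the same genes. By 24 h the means of CAT1, AER and MT2A were 1239.5, 2101 and 13998. FSD1 averaged 195.7 before 2,4-D, above QC cells by 1.14 on the log2 scale. Its later means were 140.2, 91.3 and 690.2, for 24, 48 and 72 h in turn. The second harvest averaged 466 for CAT1 and 2458 for MT2A, well above the first, and the CAT1 difference from it did not pass (0.99, adjusted p = 0.159). The other genes among the 15 highest were TI1 (a trypsin inhibitor, 5.19), CYP72A15 (a cytochrome P450, 4.97), SUS1 (a sucrose synthase, 4.71), NIT4 (a nitrilase of cyanide detoxification, 4.59), JMJD5 (a Jumonji-domain protein of the circadian clock, 4.33), UGT73B1 (a glucosyltransferase, 4.21) and NRT2.7 (a nitrate transporter of the vacuole, 4.08), besides LRP1.

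The genes that lay furthest below QC cells and are not yet given were AIR1, MLP-300B, HIPP25, ST4B, MYB86, 4CL1 and CYP705A5. AIR1, a small secreted protein induced by auxin in roots, gave 5.9 and 5.7 at 96 h, against 1391, 1395 and 1443 in QC cells (log2 difference -6.03 ± 0.88, adjusted p = 0.000322). 4CL1, which makes the coenzyme A esters used for lignin and flavonoids, gave 5.5 and 30.7 at 96 h, against 1046, 1160 and 1029 in QC cells (log2 difference -5.11 ± 0.38, adjusted p = 1.03e-07). For AIR1 the mean at 0 h was 175, from arrays between 4.5 and 427. HIPP25, a metal-binding protein, gave 2.6 and 4.1 at 96 h, against 683, 601 and 1002 in QC cells (log2 difference -5.30 ± 0.35, adjusted p = 3.77e-08). The sulfotransferase gene ST4B had a log2 difference of -5.15 ± 0.69, the transcription factor gene MYB86 one of -5.13 ± 0.49 and the lectin gene MLP-300B one of -5.74 ± 1.06. For 4CL1 and MLP-300B the second harvest averaged 154 and 389, well below the first, and the MLP-300B difference from it did not pass (-2.52, adjusted p = 0.0985). CYP705A5, a desaturase of the thalianol pathway, gave -5.07 ± 0.47. Some of these genes were already below QC cells before 2,4-D. In SCR cells at 0 h the log2 differences from QC cells were -3.84 for AIR1, -5.44 for MLP-300B, -3.59 for MYB86 and -2.36 for CYP705A5. They were -0.98 for HIPP25, -1.06 for ST4B and 0.18 for 4CL1.

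Counted against the second QC harvest, where 11.1% of all probe sets were called in each direction, the lists gave fewer calls in many cases. Of the Casparian strip genes 4 of 7 tested were lower and 1 was higher, and none of 7 suberin genes was called. Aquaporins gave 8 lower of 15, root hair genes 6 of 11, epidermal genes 3 of 5, arabinogalactan proteins 17 lower and 1 higher of 26, xyloglucan enzymes 5 lower and 1 higher of 14 and expansins 3 lower and 2 higher of 15. The triterpene list gave 8 lower of 8 and the stress and jasmonate list 13 lower of 26. Aux/IAA genes gave 6 lower and 3 higher of 18, response factors 1 lower and 3 higher of 10, GH3 enzymes 1 lower of 5, and auxin carriers and kinases 2 lower and 2 higher of 9. Of 7 auxin synthesis genes 1 was lower, with a median difference of -0.46 in place of -1.89, so most calls of that list were lost. Lateral root and LBD genes gave 5 lower and 1 higher of 16, and the list of cell cycle inhibitors with CCS52A1 gave 4 lower of 11. Replication genes gave 1 in each direction of 19, mitotic genes 5 higher and 1 lower of 29, D-type cyclins 0 of 5 and cytokinin genes 4 lower and 1 higher of 21. None of 4 root cap genes and none of 15 photosynthesis genes was called. The niche list gave 3 higher and 1 lower of 19, the higher ones being MYB56, BBM and CLE40, and the SHR and SCR list 1 in each direction of 8.

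Single genes lost their call against that harvest as well. SMR4 had a difference of -0.77 (adjusted p = 0.281), CCS52A1 -1.15 (adjusted p = 0.0627), YUC5 -0.75 (adjusted p = 0.272) and CYCA1;1 -0.19 (adjusted p = 0.772). PLT3, MYB92, IAA14, IAA27, IAA28, ARF7, ARF16, YUC8, WAG1, POK2, PAKRP1, AUR1, CYCD5;1, BRN1, BRN2, COBL2, EXPA7 and LHCB5 kept their direction without passing. LAC1, YUC7, CYCD3;1 and GL2 fell below the filter on dim probe sets there. Both comparisons use the same arrays at 96 h.

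**Figure D5:**
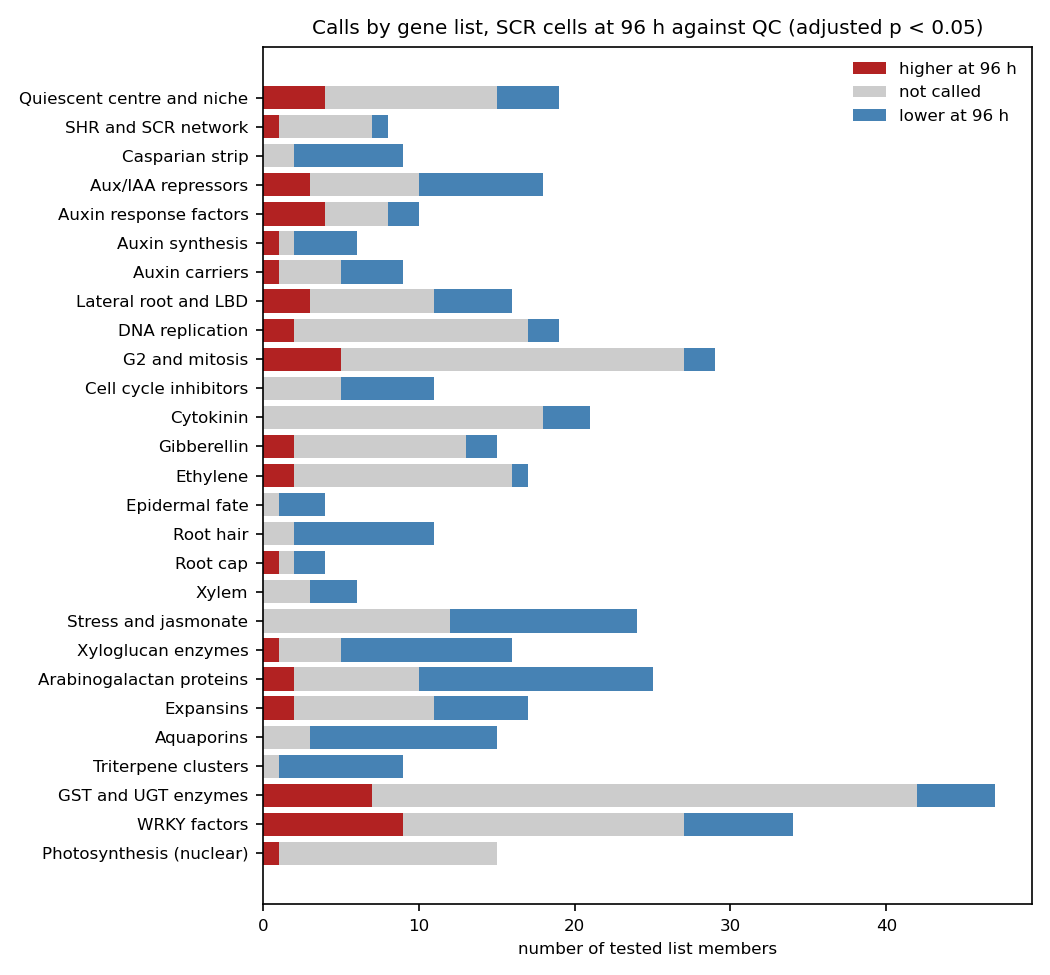
Number of tested members of each gene list called higher at 96 h (red), not called (grey) and called lower (blue) against QC cells at an adjusted p under 0.05. Aquaporins, root hair, Casparian strip, triterpene and xyloglucan enzyme lists are mostly blue, and the niche, DNA replication and mitosis lists are mixed. The list of cell cycle inhibitors, which also holds CCS52A1, has blue and grey only.

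Few organelle transcripts were called in the shared fit, but the count moved with the fit, from 2 to 29 when the 5 arrays were fitted alone. Of 80 plastid probe sets 1 was called, lower at 96 h, with a median difference of -0.02, and of 57 mitochondrial probe sets 1 was called, also lower, with a median of -0.67. Against the second harvest the medians were -0.60 and -1.49. The plastid mean of log2(signal + 16) was 9.63 and 9.06 on the arrays at 96 h and 9.23, 9.35 and 9.49 on the QC arrays. Of 15 nuclear photosynthesis genes tested, LHCB5, a light-harvesting protein, was the one called, a share of 6.67% against 30.3% over all probe sets (log2 difference 1.30 ± 0.43, adjusted p = 0.0313). That call was lost for LHCB5 without replicate 2 at 96 h or QC replicate 3 (adjusted p = 0.122 to 0.251).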

How the data were processed

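The arrays were grouped by their titles and source names. Per the submitters' processing notes, the authors deposited linear MAS5 signal intensities for each array, at 1 value a probe set. No source used here gives the array type, the MAS5 version and scaling or the genome build. Symbols came from the RefSeq gene table of TAIR10.1, which matched 16032 of 16255 loci. Most of chromosome 2 was not analysed here (401 probe sets are present).

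Signals were turned to log2(signal + 16) with no further scaling, and the dimmest 30% of probe sets by mean were left out of testing. A linear model of 14 arrays (all SCR-sorted times and the separate QC harvest) was fitted in limma (version 3.58.1, under R 4.3.3) by lmFit and eBayes with trend and robust, so the groups share 1 estimate of the spread. The script was tested on simulated data. Figures used matplotlib 3.10.9. The named genes were the called members of each list with the largest differences (up to 6), a few defining genes, and the 15 highest and 15 lowest called nuclear genes with a symbol, groups that do not overlap and a mean of at least 100 in a group. The members and the 35 gene lists were chosen with earlier results of these data known, and 3 lists (triterpene, sucrose synthase, class I homeobox) after the values were seen, as were GSO1, HB20 and HB40 and other genes named outside the rule. The alternatives were other pseudocounts, filters, scaling, sets of arrays, weights, the replicate block, the second QC harvest and leaving out each array.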

Additional observations from a re-analysis of the deposited data

How the results depend on the processing

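The count of 3472 calls ranged from 2279 (without replicate 2 at 96 h) to 4236 (without replicate 5 at 0 h) when arrays were left out in turn. It was 2391 without replicate 3 at 96 h, 2726 with a filter at the 50th percentile, and 3159 to 4544 under the other pseudocounts, scalings, arrays and weights and with no filter. With the replicate number as a block it was 4084. Deviations of equally numbered arrays correlated at 0.03 for replicate 2 and 0.01 for replicate 3. With 2 arrays at 96 h, their deviations mirror each other, so this check cannot settle whether the numbers pair the samples. Quantile normalization moved the median difference to 0.15 and the share of calls that were higher to 51.4%, beside 0.01 and 45.4% as reported, and a filter at the 50th percentile moved these to 0.14 and 54.4%. Of 174 called genes among the 183 named, 101 kept their direction and call in every alternative that tested them. Against the QC harvest grown with jkd, 46 lost their call and 8 changed sign, and the number of named genes called was 112. The values that changed sign against that harvest were GSO1 1.74, PER72 0.95, GH3.6 0.74, GA2OX6 0.23, MCM3 0.17, LBD41 -0.31, AGP10 -0.40 and XTH24 -0.40, and for genes not called, JKD 0.091, RBR1 -0.44 and MYB36 0.26. SHR, not called, went to -0.022 with the replicate block and ranged from -0.32 to 0.38 with arrays left out. PIN2, not called, ranged from -0.0079 to 0.58 with 1 array left out. IAA30, not called, ranged from -0.32 to 0.90 with arrays left out. The organellar calls numbered 2, and were 6 with a pseudocount of 64, 4 after quantile normalization, 29 with the 5 arrays alone, 7 with all 26 arrays, 9 with array weights, 26 against the other harvest, 22 with the block and 0 to 17 with arrays left out. With 2 arrays at 96 h and signals near the floor, small differences of weak genes could not be detected.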

Other observations

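WRKY transcription factors, a family of stress and development regulators, were called in both directions. Of 34 tested, 9 were higher at 96 h and 7 lower, a share of 47.1% beside 30.3% over all probe sets. Against the second harvest 2 were higher and 4 lower of 32, where 22.1% of all probe sets were called. WRKY23, known as auxin-induced in roots, gave 1659 and 1426 at 96 h, against 398, 258 and 187 in QC cells (log2 difference 2.45 ± 0.57, adjusted p = 0.00614), and WRKY48 gave 1039.6 and 950 at 96 h, against 155, 153 and 229 in QC cells (log2 difference 2.39 ± 0.33, adjusted p = 4.43e-05). The second harvest averaged 1031 for WRKY23 and 699 for WRKY48, and neither difference from it passed (0.58 and 0.58). The call was lost for WRKY23 without replicate 2 at 96 h (adjusted p = 0.0505). WRKY38 was the lowest, at 3.2 and 17.3 at 96 h, against 376, 406 and 366 in QC cells (log2 difference -3.98 ± 0.53, adjusted p = 4.69e-05), with a difference of -3.73 from the second harvest. Of 47 glutathione transferase and glucosyltransferase genes, which conjugate foreign and endogenous compounds, 7 were higher and 5 lower, a share of 25.5% that lay below the 30.3% over all probe sets. UGT73B1 gave 868 and 2031 at 96 h, against 44.8, 59.6 and 67.1 in QC cells (log2 difference 4.21 ± 0.47, adjusted p = 1.03e-05), whereas GSTU28 gave 57.7 and 60.8 at 96 h, against 1239, 1149.6 and 1045 in QC cells (log2 difference -3.94 ± 0.45, adjusted p = 8.07e-06).

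Members of small enzyme and homeobox families, listed after their values were seen, stood on opposite sides. Among the sucrose synthases, which split sucrose for use in sink tissue, SUS1 gave 5042 and 3922 at 96 h, against 169.8, 208 and 104 in QC cells (log2 difference 4.71 ± 0.32, adjusted p = 4.67e-08) and SUS3 gave 708 and 1085 at 96 h, against 108, 71.2 and 76.9 in QC cells (log2 difference 3.15 ± 0.34, adjusted p = 4.58e-06). SUS4 gave 2.5 and 4.5 at 96 h, against 86.6, 37.3 and 91.5 in QC cells (log2 difference -2.10 ± 0.41, adjusted p = 0.00114). The SUS1 mean in SCR cells was 190.2 at 0 h and 1918 at 24 h. Among the class I homeobox-leucine zipper genes, HB40 gave 442 and 289.7 at 96 h, against 49.4, 16.7 and 30 in QC cells (log2 difference 3.02 ± 0.44, adjusted p = 7.91e-05). HB-12 and HB20 were lower, at -4.91 ± 0.48 and -4.23 ± 0.36. Of 17 ethylene genes tested, 2 were higher and 1 was lower, a share of 17.6% that lay below the 30.3% over all probe sets. EBF2, an F-box protein that destroys EIN3, gave 1377 and 1741 at 96 h, against 343, 274 and 212 in QC cells (log2 difference 2.45 ± 0.35, adjusted p = 7.33e-05). ACS6, an enzyme of ethylene synthesis, gave 85.3 and 172 at 96 h, against 1143, 1122 and 1304 in QC cells (log2 difference -3.13 ± 0.37, adjusted p = 1.04e-05). Neither passed against the second harvest (1.77 and -0.82). Gibberellin genes gave 2 higher and 2 lower of 15 tested, a share of 26.7%, also below that over all probe sets. The gibberellin synthesis gene GA1 gave 146 and 187 at 96 h, against 21.9, 43.3 and 21.1 in QC cells (log2 difference 2.05 ± 0.45, adjusted p = 0.00249).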
